A study of Mus musculus with 47 samples.

Results

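The fibres described here are the single C2KO muscle fibres with the most and with the least Actc1 RNA. Actc1 encodes cardiac alpha-actin, and the fibres were chosen by its measured level: within each of the 2 sets of C2KO libraries, whose names open with 740 or with 2445, the 10 fibres were ranked by Actc1 in CPM, the share of gene counts scaled to a fixed library total, and the top 3 and bottom 3 of each set were taken. This gave 6 high-Actc1 and 6 low-Actc1 fibres, 12 of the 20 C2KO fibres and of 47 fibres in all, with 8 C2KO fibres of middle rank left between them. Each sample was 1 fibre freed with collagenase from a fast hindlimb muscle, the extensor digitorum longus (EDL), of FVB/N mice aged 2 to 3 months. C2KO mice lack Mybpc2, which encodes fast myosin-binding protein C, in every tissue, because a neomycin cassette replaces most of its exons. The 27 fibres of WT FVB/N mice were used to look at the same relations outside the knockout. The labels give 2 C2KO and 3 WT mice but do not tie fibres to mice. The p-values of C2KO fibres below thus measure the spread between fibres within a prefix, not between animals. WT fibres have no prefix, and their slopes were fitted without the animal as a block. Differences between the WT mice can therefore enter the WT slopes.

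Actins are the subunits of the thin filament. In the mouse, cardiac alpha-actin is made by the heart and by developing skeletal muscle, and adult skeletal muscle replaces most of it with skeletal alpha-actin, the product of Acta1. The genes of muscle actins are known to be driven by serum response factor (SRF), which binds a short motif called the CArG box and is helped by MRTF proteins that sense unpolymerised actin. Regenerating, denervated and diseased muscle is known for making Actc1 again.

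The sequences just before 4 gene starts are shown, those of Actc1 and of the 3 genes whose slopes on Actc1 over the C2KO fibres had the smallest p in the results below. Each is the 250 bases before the RefSeq start on GRCm38.p6, with any CArG box, searched on both strands, in capitals. Actc1 lies on chr2:114052876-114053125 (minus strand), C130080G10Rik on chr2:114054146-114054395 (plus strand), Myl9 on chr2:156775214-156775463 (plus strand) and Lmod2 on chr6:24597521-24597770 (plus strand).
Actc1: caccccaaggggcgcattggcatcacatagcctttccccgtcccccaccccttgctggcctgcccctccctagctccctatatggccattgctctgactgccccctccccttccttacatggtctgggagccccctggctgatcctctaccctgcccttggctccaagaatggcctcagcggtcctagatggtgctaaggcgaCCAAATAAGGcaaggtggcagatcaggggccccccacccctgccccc
C130080G10Rik: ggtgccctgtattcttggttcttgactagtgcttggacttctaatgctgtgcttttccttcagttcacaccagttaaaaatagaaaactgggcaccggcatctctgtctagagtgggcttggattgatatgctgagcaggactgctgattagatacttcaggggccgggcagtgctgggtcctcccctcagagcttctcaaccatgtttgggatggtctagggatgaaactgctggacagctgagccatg
Myl9: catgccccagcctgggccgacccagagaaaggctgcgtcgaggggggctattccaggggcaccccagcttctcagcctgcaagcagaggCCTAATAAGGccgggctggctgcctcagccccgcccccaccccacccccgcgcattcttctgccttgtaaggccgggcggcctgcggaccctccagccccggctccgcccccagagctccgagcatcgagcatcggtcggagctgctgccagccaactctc
Lmod2: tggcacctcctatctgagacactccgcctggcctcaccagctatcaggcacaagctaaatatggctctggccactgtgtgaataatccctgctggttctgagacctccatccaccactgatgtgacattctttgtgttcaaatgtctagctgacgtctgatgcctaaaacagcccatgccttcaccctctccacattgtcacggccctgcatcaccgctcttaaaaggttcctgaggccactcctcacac
The Actc1 window held 1 CArG box, 47 bases before the start, and the Myl9 window held 1, 161 bases before the start. The windows of C130080G10Rik and Lmod2 held none. Of 32851 RefSeq promoters, 482 (1.47%) held such a box in the same length, and a match is a description of these letters only.

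The 12 libraries were of similar depth, with 8751953 to 10444316 counts assigned to genes in the high-Actc1 fibres and 7648762 to 10223914 in the low-Actc1 fibres. No 2 of the 20 C2KO libraries agreed within sampling noise. All C2KO fibres held residual Mybpc2 counts, at 2.61 to 47.6 CPM, against at least 6563 CPM in every WT fibre. Myh4, the myosin of the fastest fibres, made up 99.6% to 99.7% of adult myosin heavy chain counts in the high-Actc1 fibres and 99.4% to 99.6% in the low-Actc1 fibres. High-Actc1 fibre 740-2 and low-Actc1 fibre 740-4 came from 1 sequencing run, low-Actc1 fibre 740-1 from another, and the other 9 shared a run of their own. High-Actc1 fibres 740-2 and 740-5 stood apart by holding RNA of connective tissue and vessels, so the counts and lists below are also given without them. The prefixes differed in sex-linked RNA: Ddx3y had 468 to 1384 counts and Eif2s3y 329 to 793 in every fibre of prefix 740 and 0 in every fibre of prefix 2445, while Xist had 0 or 1 count in prefix 740 and 37 to 93 counts in prefix 2445. The study describes the donors of these fibres as male. Prefix, sex-linked RNA and the animals behind them cannot be told apart, and the classes were compared within prefixes.

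Actc1 itself had 3291, 3253 and 2689 CPM in the high-Actc1 fibres of prefix 740 (740-2, 740-5 and 740-6) and 4174, 3579 and 2867 CPM in those of prefix 2445 (2445-11, 2445-2 and 2445-7). The low-Actc1 fibres had 1407, 1293 and 546 CPM in prefix 740 (740-7, 740-4 and 740-1) and 1381, 822 and 359 CPM in prefix 2445 (2445-5, 2445-13 and 2445-6). The means were 3309 and 968 CPM, a ratio of 3.42, which the ranking itself set and which was therefore not tested. Just outside the choice, the highest middle fibres had 2437 CPM (740-8) and 2543 CPM (2445-4), and the lowest middle fibres had 1433 CPM (740-13) and 1740 CPM (2445-1). The lower limit in prefix 740 thus fell between fibres that differed by little. In WT fibres Actc1 ran from 4.12 to 1234 CPM with a median of 72.3 CPM, so all 6 high-Actc1 fibres and 3 of the 6 low-Actc1 fibres lay above every WT fibre.

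**Figure D1:**
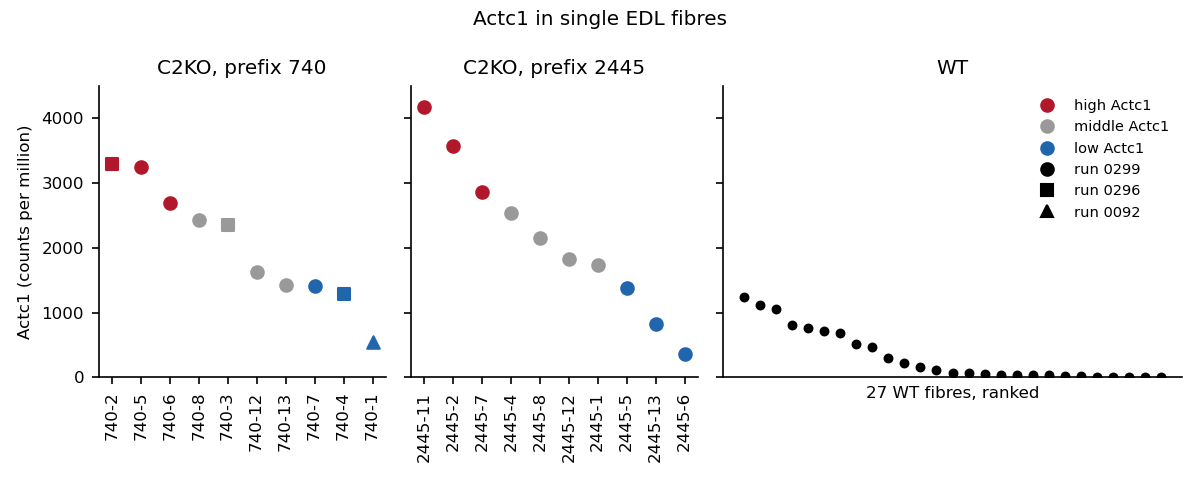
Actc1 in CPM (vertical axis) in each C2KO fibre, ranked within prefixes 740 and 2445, and in the 27 WT fibres, 1 point a fibre, with colour for class and marker shape for sequencing run in C2KO fibres. The high-Actc1 fibres sit between 2689 and 4174 CPM and the low-Actc1 fibres between 359 and 1407 CPM, while the highest WT fibre is at 1234 CPM.

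With Actc1 left out, 9885 genes were compared between the high-Actc1 and the low-Actc1 fibres with the prefix as a block (edgeR's quasi-likelihood test, Benjamini-Hochberg adjusted p under 0.05 and a fold over 1.5). Only 5 genes passed: Lsp1 rose (1 gene, 0.0101% of those tested) and Mid1ip1, Cd24a, Twsg1 and Irx3 fell (4 genes, 0.0405%). At an unadjusted p under 0.05, 627 genes were higher (6.34%) and 721 lower (7.29%). The high-Actc1 and low-Actc1 fibres did not overlap in either prefix for 97 genes that were higher (0.981%) and 70 that were lower (0.708%), and all 5 genes that passed were among these.

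Mid1ip1 showed the firmest difference. It encodes a partner of the microtubule-binding protein MID1 that also promotes the assembly of acetyl-CoA carboxylase, the enzyme that commits carbon to fatty-acid synthesis. Mid1ip1 (chrX:10717365-10719702, mm10) had 74.9, 71.9 and 82.6 CPM in the high-Actc1 fibres of prefix 740 and 39.2, 57.7 and 32.4 CPM in those of prefix 2445, against 308, 222 and 241 CPM and 82.1, 122 and 112 CPM in the low-Actc1 fibres of these prefixes. Prefix 2445 had lower levels in both classes, and within each prefix every high-Actc1 fibre was below every low-Actc1 fibre. Mid1ip1 fell by 1.54 on the log2 scale (SE 0.17, adjusted p = 0.00284 by edgeR) in the high-Actc1 fibres. It was the single gene of the 5 that passed in all 12 fits that left out 1 fibre.

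The other 3 genes that fell encode signalling and surface proteins. Twsg1, twisted gastrulation, encodes a secreted protein that binds bone morphogenetic proteins. It had 32.6, 39.6, 45.5, 50.3, 38.6 and 47.7 CPM in the high-Actc1 fibres, against 71.0, 86.7, 82.4, 67.3, 76.4 and 78.3 CPM in the low-Actc1 fibres, so the classes did not overlap even across prefixes, and Twsg1 changed by -0.88 (SE 0.13, adjusted p = 0.0344 by edgeR). Cd24a encodes a small glycoprotein anchored in the cell membrane. Its levels were 149, 144 and 205 CPM in the high-Actc1 fibres of prefix 740 and 102, 89.2 and 89.8 CPM in those of prefix 2445, against 293, 399 and 511 CPM and 134, 209 and 199 CPM in the low-Actc1 fibres, and Cd24a changed by -1.13 (SE 0.17, adjusted p = 0.0366 by edgeR). Irx3 encodes an Iroquois homeobox transcription factor and had the lowest level of the 5, at 5.57, 7.14 and 8.57 CPM and 3.86, 5.08 and 6.22 CPM in the high-Actc1 fibres, against 13.1, 22.1 and 24.6 CPM and 10.5, 13.0 and 8.87 CPM in the low-Actc1 fibres. Irx3 changed by -1.32 (SE 0.21, adjusted p = 0.0478 by edgeR). Lsp1, which encodes an actin-binding protein first known from white blood cells, was the gene that rose. It had 43.3, 41.3 and 42.8 CPM in the high-Actc1 fibres of prefix 740 and 21.4, 29.1 and 31.1 CPM in those of prefix 2445, against 25.7, 21.9 and 14.9 CPM and 10.0, 13.8 and 13.9 CPM in the low-Actc1 fibres (log2 fold change 1.05, SE 0.15, adjusted p = 0.0236 by edgeR).

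These calls were near the limit of what 12 fibres show. Without high-Actc1 fibres 740-2 and 740-5, 0 genes passed edgeR's test (559 higher and 609 lower at an unadjusted p under 0.05), with Mid1ip1 at -1.37 and an adjusted p of 0.0809. The number of genes that passed was 1 without any one of 740-2, 740-4, 740-1, 2445-13 or 2445-6, 2 without 740-5, 9 without 2445-7, 13 without 740-7, 17 without 2445-11, 80 without 2445-2 and 134 without 2445-5. DESeq2 called 271 genes and limma-voom 48 in the same 12 fibres. None of the 5 genes changed direction under any of 28 alternatives, which refit fibres of the same Actc1 ranking. The call itself was lost in 8 of the 28 for Mid1ip1, 14 for Lsp1, 15 each for Cd24a and Twsg1, and 16 for Irx3. The differences of the 5 genes between prefixes 740 and 2445 did not pass their own test.

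**Figure D2:**
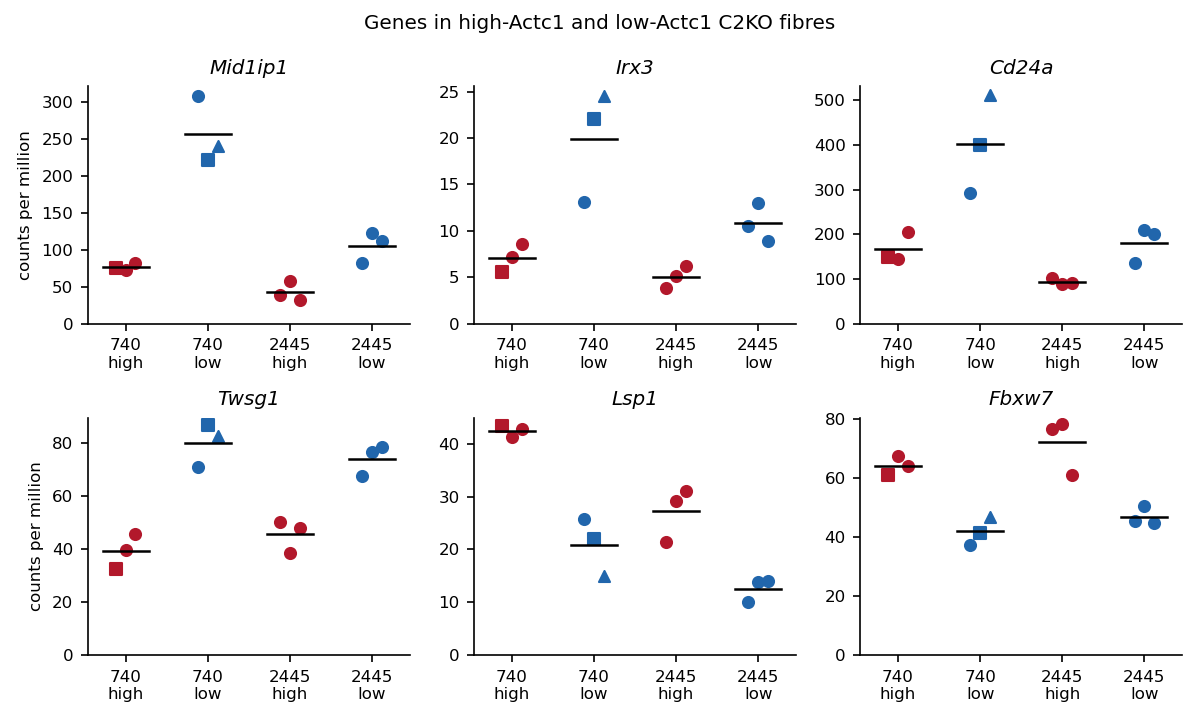
CPM (vertical axes, each from 0) of 6 genes in high-Actc1 (red) and low-Actc1 (blue) C2KO fibres of each prefix, 1 point a fibre, the bar at the mean, with circles for the sequencing run of 9 fibres, squares for that of 740-2 and 740-4 and the triangle for that of 740-1. In every panel the classes do not overlap within a prefix, as for Mid1ip1 with 71.9 to 82.6 CPM in high-Actc1 and 222 to 308 CPM in low-Actc1 fibres of prefix 740.

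The next genes by p did not pass the adjusted test. Fbxw7, the substrate-binding subunit of an SCF ubiquitin ligase, averaged 68.1 ± 7.68 CPM in high-Actc1 fibres and 44.4 ± 4.49 CPM in low-Actc1 fibres (SD, n = 6 each), with a log2 fold change of 0.60 and an adjusted p of 0.0516 by edgeR. Actb, cytoplasmic beta-actin, had log2 fold change 0.50 (adjusted p = 0.077 by edgeR), and Mkl1, which encodes the SRF partner MRTF-A, 1.08 (adjusted p = 0.077). Mkl1 did not overlap in prefix 740, at 44.0 to 47.1 CPM in high-Actc1 fibres and 9.96 to 15.7 CPM in low-Actc1 fibres, and overlapped in prefix 2445, at 11.1 to 21.2 CPM and 12.3 to 13.5 CPM. Slc7a8, an amino-acid transporter (1.31), Nmrk2, the nicotinamide riboside kinase of muscle (0.65), Naa15, a subunit of an N-terminal acetyltransferase (0.47), and the kinase gene Pim3 (0.67) were the other genes with positive differences and the smallest p, with adjusted p from 0.0729 to 0.0793 by edgeR. Negative differences of this kind were those of the transcription factor gene Cebpb (-0.84), of Gch1, the first enzyme of tetrahydrobiopterin synthesis (-1.74), of Pqlc1 (-1.79) and of Adck3, a gene of coenzyme Q synthesis (-0.55), with adjusted p from 0.0516 to 0.0578 by edgeR.

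Across all 20 C2KO fibres, which include the 12 that chose the classes, the genes whose rank order was most like that of Actc1 were taken among those of at least 10 CPM on average. After the prefix means of log2(CPM + 1) were subtracted, Spearman's rho was 0.81 for Lsp1, 0.80 for Prkag3, a regulatory subunit of AMP-activated kinase found mainly in fast muscle, 0.78 for Myl9, 0.77 for the kelch gene Klhl31, and 0.76 for Naa15 and for Fam3a. Among the most opposite orders were those of Irx3 (-0.85), of the actin nucleator gene Cobl (-0.80), of Mid1ip1 (-0.79), of the paraoxonase gene Pon2 (-0.78) and of Twf2, a twinfilin that binds actin monomers (-0.75). These values describe 20 fibres that share 2 prefixes and 3 runs.

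The relation with Actc1 was next fitted without classes. In C2KO fibres a slope, the log2 change of a gene for each doubling of Actc1, was fitted over all 20, and at an adjusted p under 0.05 with no fold limit 10 genes rose with Actc1 (0.102% of 9843) and 11 fell (0.112%). The WT fibres had no part in choosing the classes, and there 77 of 10644 genes rose with Actc1 (0.723%) and 51 fell (0.479%), with run and Xist as covariates. All 21 C2KO slope genes had the same sign of slope in WT fibres, and 8 of them (38.1%) also passed in WT. These 8 made up 6.25% of the 128 WT slope genes, and none passed with opposite signs.

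Seen from the WT side, 117 of the 128 WT slope genes were tested between the high-Actc1 and low-Actc1 fibres. Of 70 that rose with Actc1 in WT, 57 were higher in high-Actc1 than in low-Actc1 C2KO fibres, with a median log2 difference of 0.29, and 17 (24.3%) had an unadjusted p under 0.05, against 6.34% of all genes tested. Of 47 that fell with Actc1 in WT, 41 were lower, with a median of -0.37, and 21 (44.7%) had an unadjusted p under 0.05, against 7.29%. None reached that level in the opposite direction, and the median over all genes was 0.01. The 38 genes at that level were 32.5% of the 117, while 13.6% of all genes reached it in either direction. With prefix 740 alone they became 23 (19.2%, with 4 in the opposite direction), close to the 16.2% of all genes in either direction. With prefix 2445 alone they became 42 (37.2%), against 6.29% of all genes. The 5 genes that passed between the classes were not among the WT slope genes: the WT slope of Mid1ip1 was -0.11 (adjusted p = 0.725 by edgeR), that of Irx3 -0.21 (0.116) and that of Lsp1 0.20 (0.114). With WT shares of only 0.723% and 0.479% over all genes, their absence does not set these 5 apart.

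A neighbour of Actc1 followed it closely, with a rho of 0.91 over the 20 C2KO fibres, at a level too low for the ranking above. C130080G10Rik (chr2:114054396-114061502, plus strand) is read away from Actc1 (chr2:114047289-114052811, minus strand), and 1584 bases lie between the 2 annotated genes. It had 15.4, 9.56, 9.14, 10.2, 9.74 and 10.3 CPM in the high-Actc1 fibres, against 1.51, 1.87, 0.261, 3.51, 2.64 and 0 CPM in the low-Actc1 fibres. All 6 high-Actc1 fibres were thus above all 6 low-Actc1 fibres, and the difference between the classes was 2.70 (SE 0.54, adjusted p = 0.0729 by edgeR). Its slope was 1.66 in C2KO fibres (SE 0.21, adjusted p = 0.000609) and 0.88 in WT fibres (SE 0.15, adjusted p = 0.00146), where its levels ran from 0 to 3.77 CPM. In the 8 middle fibres, which took no part in either class, its slope was 2.42 (unadjusted p = 0.00812 by edgeR), and 0 genes passed the adjusted test there (143 higher and 94 lower at an unadjusted p under 0.05).

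The genes that rose with Actc1 in both genotypes included Myl9, which encodes the regulatory light chain of smooth-muscle and non-muscle myosin. It had 41.3, 21.9 and 30.7 CPM and 18, 26.7 and 24 CPM in the high-Actc1 fibres, against 28.8, 23.7 and 5.62 CPM and 5.02, 3.33 and 0.825 CPM in the low-Actc1 fibres, so the classes overlapped in prefix 740 only. The slope of Myl9 was 1.19 in C2KO fibres (SE 0.19, adjusted p = 0.00651 by edgeR) and 0.65 in WT fibres (SE 0.08, adjusted p = 6.41e-05). Kcnf1, a modulatory potassium-channel subunit, had slopes of 0.84 in C2KO (adjusted p = 0.0301 by edgeR) and 0.52 in WT (0.000586), and Pla2g7, the plasma form of platelet-activating factor acetylhydrolase, 0.46 (0.042) and 0.19 (0.0112). Palmd, palmdelphin, did not overlap between the classes in either prefix, at 8.80 to 22 CPM in high-Actc1 fibres and 3.22 to 7.22 CPM in low-Actc1 fibres, and its slope passed in WT (0.28, adjusted p = 0.00517 by edgeR) but not in C2KO fibres (0.53, 0.0829). AW551984 had a WT slope of 0.90 (adjusted p = 0.000914 by edgeR) and a C2KO slope of 0.77 (0.0597).

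Among the genes that fell with Actc1 in both genotypes, Lmod2 had the largest C2KO slope. It encodes leiomodin-2, which nucleates actin and lengthens thin filaments at their pointed ends. Lmod2 had 0.643, 1.01 and 1.03 CPM and 0.406, 1.32 and 4.12 CPM in the high-Actc1 fibres, against 1.01, 3.42 and 10.5 CPM and 7.53, 12.1 and 24 CPM in the low-Actc1 fibres. Its slope was -1.27 in C2KO fibres (SE 0.17, adjusted p = 0.000609 by edgeR) and -0.57 in WT fibres (SE 0.08, adjusted p = 0.000411). Hspb7, a small heat-shock protein of heart and muscle, had 29.5 to 162 CPM in high-Actc1 fibres and 92.9 to 372 CPM in low-Actc1 fibres, with slopes of -0.79 in C2KO (adjusted p = 0.00728 by edgeR) and -0.26 in WT (0.0036). Mb, myoglobin, had 34.7, 42.3, 25.9, 41.0, 36.9 and 61.0 CPM in the high-Actc1 fibres, against 43.0, 63.0, 113, 111, 57.9 and 138 CPM in the low-Actc1 fibres, with slopes of -0.60 in C2KO (adjusted p = 0.0301 by edgeR) and -0.20 in WT (0.0428). Mb shares 62 exon bases with Apol6 on the other strand, and reads of the pair cannot be told apart where the kit's strandedness is not known. The same holds for Adck3 (365 shared bases), Gadd45a (238), Pla2g7 (140), Fbxw7 (135), Palmd (102), Cox6a2 (69) and Mkl1 (10). Abcb4, a phospholipid transporter, had slopes of -0.21 (0.00925) and -0.12 (0.00424), and the kelch gene Klhl34 passed in WT only (-0.55, 0.00133, against -1.04, 0.0829 in C2KO).

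All 21 C2KO slope genes had the larger slope in C2KO fibres, but they were chosen there, and the slopes of a single gene passed the test of the difference between genotypes. That gene was Mybpc2 itself (slope difference 0.63, adjusted p = 0.0474 by edgeR), whose remaining counts were 42.7, 26, 23, 20.8, 47.6 and 26.9 CPM in the high-Actc1 fibres and 27.7, 16.4, 2.61, 8.43, 16.2 and 5.05 CPM in the low-Actc1 fibres. The WT slopes depended on their covariates, none of which stood for the animal. Xist was included because WT Actc1 was known, from earlier results of these data, to differ with sex-linked genes. With run alone as covariate 361 genes passed, and within the 15 WT fibres with Y-linked counts 2 genes did, within the 11 with Xist counts 0 (edgeR). The signs of the 21 C2KO slope genes matched for 18 with run alone, for 18 of the 20 that could be tested in the fibres with Y-linked counts, and for 19 in the fibres with Xist counts.

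**Figure D3:**
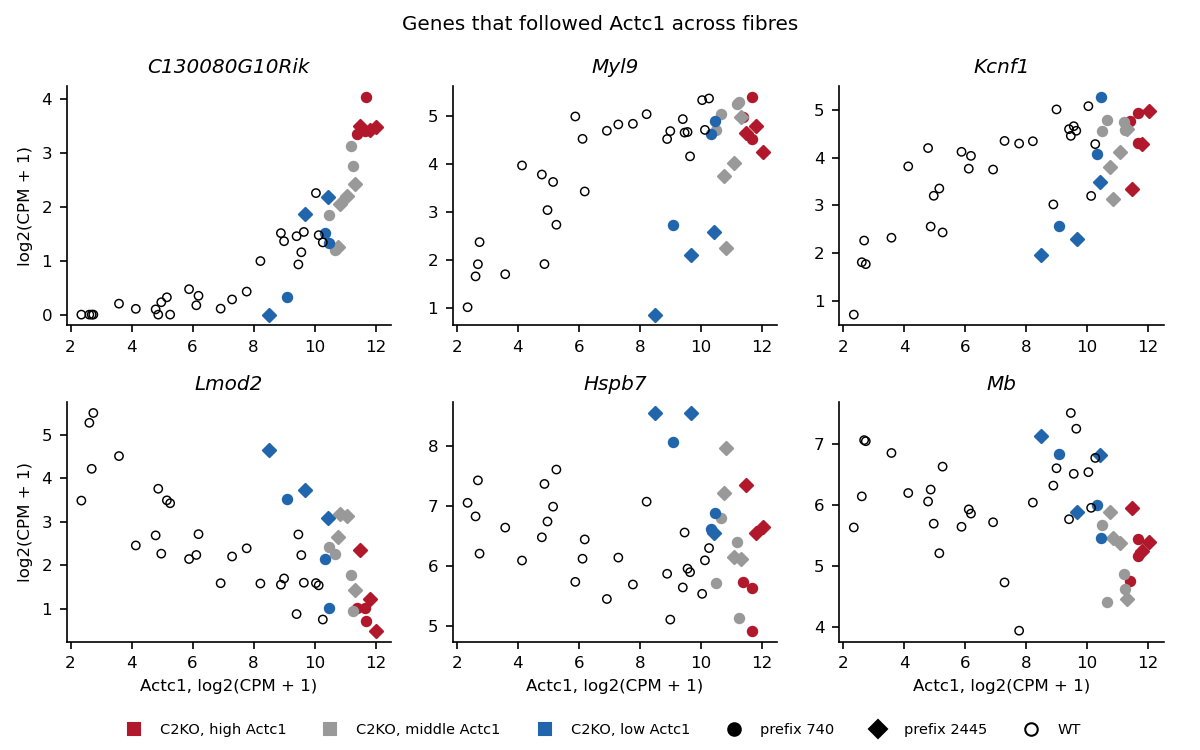
Level of 6 genes as log2(CPM + 1) (vertical axes) against Actc1 as log2(CPM + 1) (horizontal axes) in 20 C2KO fibres (filled, coloured by class, circles for prefix 740 and diamonds for 2445) and 27 WT fibres (open circles). C130080G10Rik, Myl9 and Kcnf1 rise with Actc1 in both genotypes, with WT slopes of 0.88, 0.65 and 0.52, and Lmod2, Hspb7 and Mb fall, with WT slopes of -0.57, -0.26 and -0.20.

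Some differences between the classes were larger in prefix 740, the prefix with Y-linked RNA, than in prefix 2445. The high-low differences of the prefixes differed for 79 genes by the interaction test of edgeR: 14 had the higher value in prefix 740 (0.142% of those tested) and 65 the lower (0.658%). Of the 79, 0 had a WT slope past its test. Of all genes 0.723% rose and 0.479% fell in that test, so 0 of 79 does not set these genes apart. The named genes were picked after their values were seen. Myod1, a master regulator of muscle differentiation, had 15.4, 26.1 and 17.5 CPM in the high-Actc1 fibres of prefix 740, against 243, 335 and 395 CPM in the low-Actc1 fibres. In prefix 2445 it had 59, 71.5 and 41.4 CPM in the high-Actc1 fibres and 34.7, 78.7 and 106 CPM in the low-Actc1 fibres, which overlap. The log2 difference was -4.15 in prefix 740 and -0.30 in prefix 2445, and the difference between them was -3.84 (SE 0.49, adjusted p = 0.00887 by edgeR).

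Several other genes picked from the 79 had the same form. By list, the difference between prefixes passed for 3 of 15 stretch-responsive genes and 4 of 25 atrophy genes in this direction and 1 atrophy gene in the other, and for 0 of 20 heat-shock chaperone and 0 of 21 unfolded-protein response genes. Runx1, a transcription factor gene known to be induced in denervated muscle, had 8.68, 10.4 and 9.60 CPM in the high-Actc1 fibres of prefix 740, against 62.1, 66.9 and 110 CPM in the low-Actc1 fibres, and 10.8, 8.42 and 7.28 CPM against 11.4, 22.8 and 17.3 CPM in prefix 2445. The growth-arrest gene Gadd45a had differences of -2.79 in prefix 740 and -0.26 in prefix 2445, and Pdk4, the kinase that shuts off pyruvate dehydrogenase, -3.13 and -0.59. For the stretch-responsive genes Ankrd1 and Xirp1 they were -3.78 and -0.37, and -4.33 and -0.69. Txnrd1 (-2.25 and -0.45) and Gclm (-2.04 and -0.43), both of redox defence, the ubiquitin ligase gene Trim63 (-1.66 and -0.08) and the myogenic factor gene Myf6 (-1.88 and 0.11) followed the same order. Lrrc30 (2.30 and 0.28) and the clock repressor gene Ciart (4.79 and 0.65) went the other way. All of these passed the interaction test, with adjusted p from 0.0111 to 0.0273 by edgeR.

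In the middle fibres of prefix 740, Runx1 did not keep the order of Actc1, with 7.43 CPM in 740-13 and 142 CPM in 740-12. By falling Actc1, Ankrd1 had 1963, 14110, 25812 and 1726 counts in 740-8, 740-3, 740-12 and 740-13. Fibre 740-8 was near the high-Actc1 fibres (1019 to 1555 counts), and 740-3 and 740-12 were in or above the range of the low-Actc1 fibres (12667 to 19108). Fibre 740-13 broke the order. The 3 low-Actc1 fibres of prefix 740 came from 3 different runs, and the part of run in the difference between prefixes was not tested. The count of 79 fell to 15 without low-Actc1 fibre 2445-5, 16 without 740-4, 29 without 2445-6, 30 without high-Actc1 fibre 740-2 and 47 to 51 without 740-1, 2445-11, 2445-2 or 740-5, and without both 740-2 and 740-5 it was 0 (286 higher and 565 lower at an unadjusted p under 0.05).

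**Figure D4:**
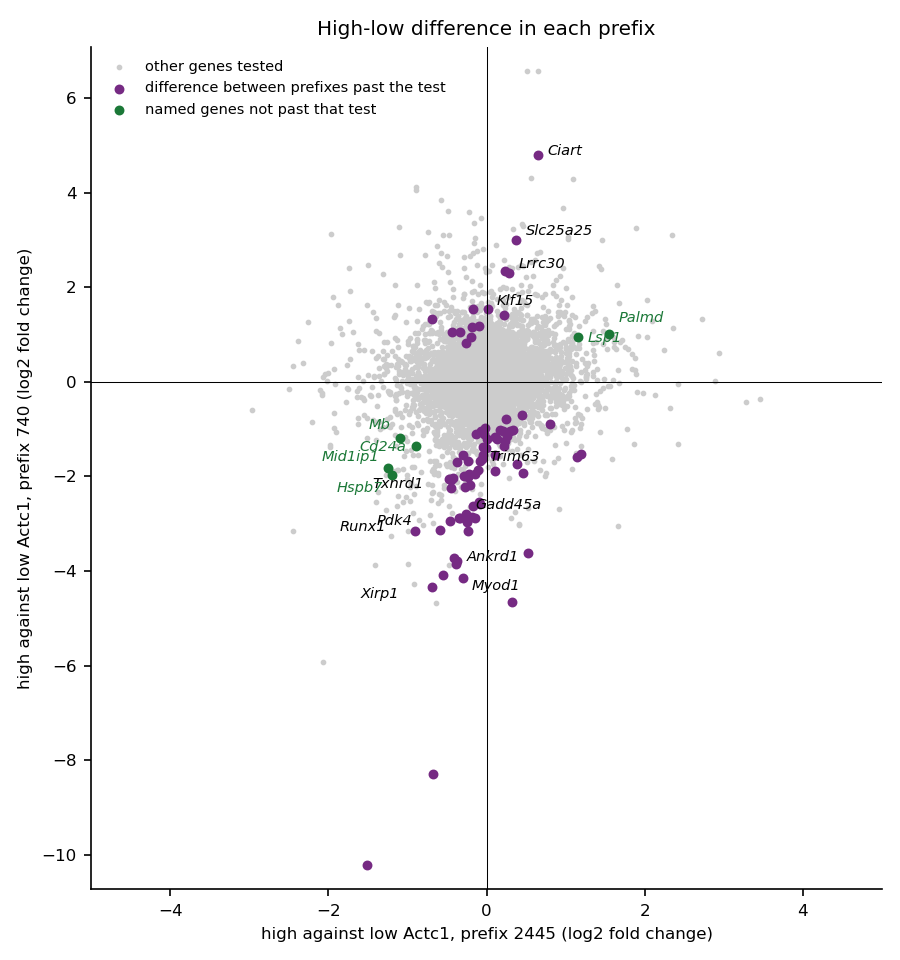
The log2 fold change of high-Actc1 over low-Actc1 fibres in prefix 740 (vertical axis) against that in prefix 2445 (horizontal axis), 1 point a gene, for genes tested in both. Purple genes passed the test of the difference between prefixes, as Myod1 with -4.15 and -0.30, and green ones, such as Mid1ip1 with -1.83 and -1.24, did not.

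Gene lists placed these genes among their kin, described by counts and medians of the log2 difference beside a median of 0.01 over all genes, of which 6.34% were higher and 7.29% lower at an unadjusted p under 0.05. No list held a gene past the adjusted test. Of 15 stretch-responsive ankyrin-repeat, LIM and Xin genes, 10 were lower and 0 higher at that level, with a median of -0.68 (-0.98 in prefix 740 and -0.24 in prefix 2445). Without fibres 740-2 and 740-5, 7 were lower and the median was -0.54. Its most abundant members moved little: Ankrd23 had -0.23 and Ldb3, a Z-disc protein gene, 0.06. The summed level of the list was 8357 to 11726 CPM in high-Actc1 fibres and 10426 to 19685 CPM in low-Actc1 fibres (exact permutation within prefixes, 2-sided p = 0.015, 0.128 after adjustment over 17 such values). Of 25 atrophy and FoxO-responsive genes 10 were lower and 2 higher (median -0.23), and of 24 immediate-early genes 8 were lower and 1 higher (median -0.24). In prefixes 740 and 2445 the medians were -0.31 and -0.08 for the atrophy list and -0.26 and -0.29 for the immediate-early list. Without both fibres the atrophy list had 7 lower and 1 higher of 26 (median -0.16) and the immediate-early list 12 lower and 1 higher (median -0.42).

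Respiratory-chain genes differed little but nearly all in 1 direction. Of 30 nuclear-encoded members 29 had a negative difference, with a median of -0.21, close to that in each prefix (-0.21 in 740 and -0.22 in 2445), and 10 were lower at an unadjusted p under 0.05, or 15 without fibres 740-2 and 740-5 (median -0.26). The summed level of the list overlapped, at 17944 to 25003 CPM in high-Actc1 fibres and 19391 to 25980 CPM in low-Actc1 fibres (exact permutation within prefixes, p = 0.17, 0.361 adjusted). Atp5b, the beta subunit of ATP synthase, averaged 3268 ± 411 CPM in high-Actc1 fibres and 3716 ± 410 CPM in low-Actc1 fibres (SD, n = 6 each). Cox6a2, the muscle form of a cytochrome c oxidase subunit, was the other most abundant member and had 0.09. Of 25 genes of fatty-acid uptake and oxidation 5 were lower and 0 higher (median -0.12). Of 18 circadian clock genes 6 were higher and 1 lower (median 0.14), while without both fibres, and in prefix 2445 alone, 2 were higher and 2 lower.

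The genes that sit with Actc1 by role did not move as 1 block. Of the 3 other actin genes tested, 2 were higher at an unadjusted p under 0.05 (median 0.50, or 0.21 without fibres 740-2 and 740-5). Of 17 SRF and MRTF target genes 4 were higher and 5 lower (median -0.11), of 20 thin-filament regulators 0 were higher and 4 lower (median -0.01), and of 8 embryonic, cardiac and slow sarcomere genes 0 were higher and 1 lower (median 0.01). Without both fibres these lists had 3 higher and 5 lower of 17 (median -0.30), 3 higher and 3 lower of 20 (median 0.05), and 1 higher and 1 lower of 10 (median 0.35). Acta1, the main actin of these fibres, averaged 71481 ± 9483 CPM in high-Actc1 and 66517 ± 7709 CPM in low-Actc1 fibres (SD, n = 6 each), a log2 difference of 0.09 (adjusted p = 0.721 by edgeR). Of 18 fast contractile genes 15 had a positive difference, with 1 higher, 1 lower and a median of 0.08. Without both fibres 8 were higher and 0 lower (median 0.17). In prefix 2445 alone 5 were higher and 1 lower (median 0.16). In prefix 740 alone 8 differences were positive and 10 negative, with 0 higher, 0 lower and a median of -0.005.

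None of the genes that mark fibre type passed the adjusted test. Myh4, fast IIb myosin, had a log2 difference of 0.08 (adjusted p = 0.828 by edgeR), Myh2 0.23 (0.609) and Myh1, fast IIx myosin, -0.55 (0.285). The Myh4 share of adult myosin counts was higher in the high-Actc1 fibres by 0.097 percentage points (exact permutation within prefixes, p = 0.035, 0.198 adjusted). The residual Mybpc2 counts given above had a class difference of 1.29 (adjusted p = 0.195 by edgeR). Mybpc1, the slow relative of Mybpc2, had -0.13 (0.763), from 2384 to 3852 CPM in high-Actc1 fibres and from 2767 to 4465 CPM in low-Actc1 fibres. Phlda3, a p53 target gene, had 81.4 to 150 CPM in high-Actc1 fibres and 80.9 to 145 CPM in low-Actc1 fibres, both above the highest WT fibre at 23 CPM. These p-values do not show that the levels were alike.

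RNA of other cell types was high in 2 of the 3 high-Actc1 fibres of prefix 740. The 15 fibroblast markers summed to 1120 CPM in high-Actc1 fibre 740-2 and 5203 CPM in 740-5, against 24 to 125 CPM in the other high-Actc1 fibres and 17 to 324 CPM in the low-Actc1 fibres. Sums of 23 matrix genes were 1130 and 4125 CPM in these fibres, 149 to 233 CPM in the other high-Actc1 fibres and 120 to 321 CPM in the low-Actc1 fibres. Endothelial markers summed to 192 and 164 CPM, against at most 1.96 CPM in the low-Actc1 fibres, and Pecam1 was at 25 and 9.15 CPM, against 0 in the other 4 high-Actc1 fibres and at most 0.261 CPM in the low-Actc1 fibres. High-Actc1 fibre 740-6 had 200.2 CPM of matrix genes and 0 CPM of endothelial markers, and middle fibre 740-8 had 613 CPM and 41.9 CPM. Middle fibre 2445-1, with Actc1 at 1740 CPM, had 378 CPM and 19.1 CPM, and 414 CPM of fibroblast markers. Such RNA was thus not confined to prefix 740 or to the high-Actc1 fibres. Over the classes the sums of matrix, fibroblast and endothelial genes had p = 0.09, 0.13 and 0.375 by exact permutation within prefixes (0.306, 0.316 and 0.486 adjusted). The summed satellite-cell markers were 3377 to 4147 CPM in high-Actc1 fibres and 3950 to 4816 CPM in low-Actc1 fibres (p = 0.015, 0.128 adjusted, same test), while of the 4 members tested 2 were higher and 1 lower at an unadjusted p under 0.05. Of the satellite-cell list, Cdh15 had 171 to 413 counts in the 12 fibres and Cxcr4 had 0, so these gave little of the sum. In whole-fibre RNA, the number of attached cells, the RNA per cell and RNA of the fibre itself cannot be told apart.

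The 9 matrix genes tested all had a positive difference at an unadjusted p under 0.05, with a median of 1.59. Without fibres 740-2 and 740-5, 8 differences were positive and 1 negative, only 1 gene was at that level and the median was 0.39. In prefix 2445 alone 1 of 8 was at that level. Sparc, a matrix-binding protein gene, had 141, 567 and 37.7 CPM and 21.8, 27.3 and 14.6 CPM in the high-Actc1 fibres, against 48.2, 47.3 and 20.8 CPM and 13.2, 17.3 and 14.4 CPM in the low-Actc1 fibres. Gsn, gelsolin, which muscle-resident fibroblasts also make, had 561 and 2731 CPM in 740-2 and 740-5 and 0 to 18.7 CPM in the other high-Actc1 fibres, against 136 CPM in low-Actc1 fibre 740-4 and 0 to 1.05 CPM in the other low-Actc1 fibres. With the fibroblast and endothelial markers as a covariate, 0 genes passed between the classes by edgeR (536 higher and 629 lower at an unadjusted p under 0.05). The log2 differences in that fit were -1.42 for Mid1ip1, -0.73 for Twsg1, -0.90 for Cd24a, -1.16 for Irx3 and 1.06 for Lsp1, with adjusted p from 0.0743 to 0.278. The WT slope genes were as large a group without both fibres, with 40 of them at an unadjusted p under 0.05 in the WT direction. These were 33.9% of those tested, against 11.6% of all genes in either direction.

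**Figure D5:**
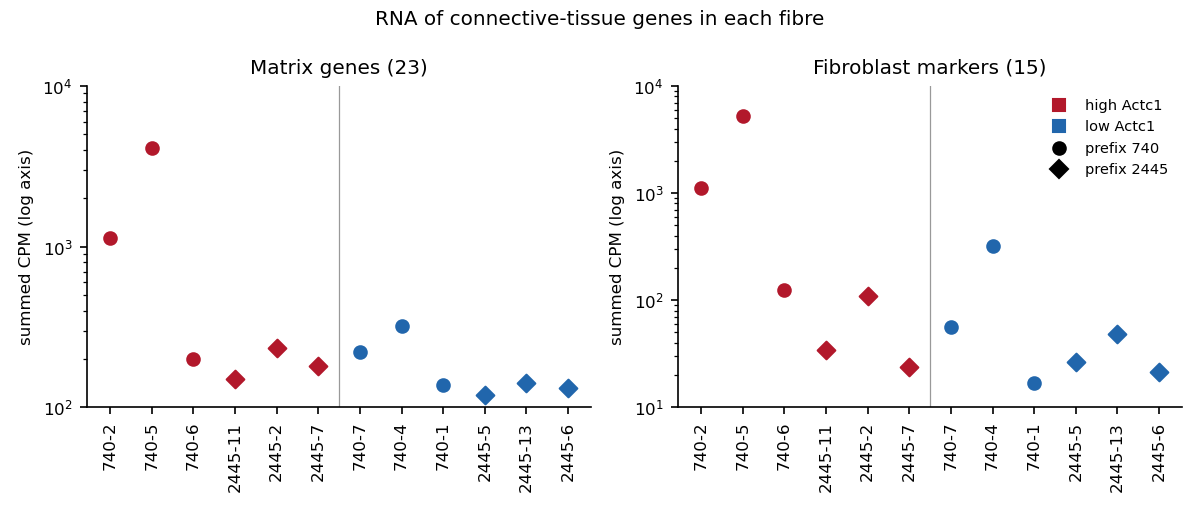
Summed CPM of 23 matrix genes and of 15 fibroblast markers (vertical log axes) in each high-Actc1 (red) and low-Actc1 (blue) C2KO fibre, circles for prefix 740 and diamonds for 2445. Fibres 740-2 and 740-5 stand apart, with 1130 and 4125 CPM of matrix genes against at most 321 CPM in the other 10.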

How the data were processed

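RNA of 47 single EDL fibres was sequenced, and the deposited files give raw read counts per gene for each fibre. Per the submitters' processing notes and the file headers, the authors used CASAVA 1.4, FastQC 0.11.2 and HISAT2 2.0.5 on mm10, and counted reads with featureCounts 1.5.2 under strand option 2. Whether the kit keeps strand was not stated, which leaves genes with a partner on the other strand uncertain. No column of the authors' own comparisons was used.

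CPM were gene counts scaled to a common total over all 24421 genes. The 12 fibres were fitted with edgeR 4.0.16 in R 4.3.3 (TMM, filterByExpr, quasi-likelihood test, prefix as block, Benjamini-Hochberg adjustment), with calls where the adjusted p was under 0.05 and the fold exceeded 1.5, and with the prefix by class interaction in a second fit. Slopes were fitted on log2(Actc1 CPM + 1), with prefix as block in C2KO fibres and with run and Xist as covariates in WT fibres, and were called on the adjusted p alone. Summed levels were compared with an exact permutation test within prefixes (400 arrangements, scipy 1.17.1, smallest possible p 0.005). DESeq2 1.42.0, limma-voom (limma 3.58.1), RLE size factors, other filters, blocks, covariates and fibre sets were the alternatives. The fits were tested on simulated data. Promoter sequences came from RefSeq (GRCm38.p6), and gene positions from the deposited counts.

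The genes named are those fixed by the ranking rule, the genes of the knockout and of fibre type, called genes, the 8 smallest p in a direction with under 5 calls (at least 10 CPM on average), the most abundant genes of each list, and the 6 highest and 6 lowest rho. Of the 6 lowest, 5 are reported here. C130080G10Rik, Palmd, Kcnf1, Lmod2, Hspb7, Mb, Abcb4, Pla2g7, Klhl34, AW551984, Sparc, Gsn, Pecam1 and the genes that differed between prefixes were picked after their values were seen. The members and lists were chosen with earlier results of these data known.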

Additional observations from a re-analysis of the deposited data

Results flagged for a closer look

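A fibre far from the other 5 of its class was seen in 19 of 156 groups of 6 tested. The nominal rate of 1 in 20 assumes independent, normally distributed values. These groups pool 2 prefixes and include genes picked after their values were seen, so no excess over chance is read from the count. Fibre 740-5 stood above the other high-Actc1 fibres for Gsn (2731 CPM), Sparc (567 CPM), Atp5b (4028 CPM) and the sums of matrix genes (4125 CPM), fibroblast markers (5203 CPM), tenocyte markers (27.5 CPM) and respiratory-chain genes (25003 CPM). Fibre 740-2 did so for C130080G10Rik (15.4 CPM), Pecam1 (25 CPM) and the immune markers (44.6 CPM), and 2445-7 for Lmod2 (4.12 CPM). Of the low-Actc1 fibres, 740-7 stood apart for Kcnf1 (37.6 CPM), Mybpc1 (4465 CPM) and the adipocyte markers (0.101 CPM), 740-4 for Gsn (136 CPM) and the fibroblast markers (324 CPM), 2445-13 for AW551984 (55.6 CPM), and 740-1 for Pecam1 (0.261 CPM) and a depth of 7648762 counts.

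The high-low difference of prefix 740 minus that of prefix 2445 passed edgeR's interaction test for 12 named genes. On the log2 scale it was -3.84 for Myod1, -3.64 for Xirp1, -3.42 for Ankrd1, -2.54 for Pdk4, -2.53 for Gadd45a, -2.25 for Runx1, -1.99 for Myf6, -1.80 for Txnrd1, -1.62 for Gclm, -1.58 for Trim63, 2.02 for Lrrc30 and 4.15 for Ciart.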

How the results depend on the processing

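The 5 genes called between the classes became 271 with DESeq2, 48 with limma-voom, 11 with no filter on low counts, 342 with prefix 740 alone, 21 with Actc1 as a continuous covariate over 20 fibres (adjusted p alone) and 1 with prefix and run as strata. The count was 0 with no prefix block, with the run of 9 fibres alone, with prefix 2445 alone, with the top 5 and bottom 5 of each prefix, with the fibroblast and endothelial markers as a covariate and without 740-2 and 740-5. It ran from 1 to 134 when 1 fibre was left out. Counts summed per prefix and class also gave 5 genes, of which 0 were among the 5 of the 12 fibres. The 79 genes that differed between prefixes became 237 with DESeq2, 57 with limma-voom, 15 to 96 with 1 fibre left out and 0 without 740-2 and 740-5. The 128 WT slope genes became 361 with run alone as covariate, 2 in fibres with Y-linked counts and 0 in those with Xist counts. The 38 WT slope genes at an unadjusted p under 0.05 in the same direction between the classes became 33 to 51 with 1 fibre left out. They became 23 with prefix 740 alone (19.2%, against 16.2% of all genes in either direction) and 42 with prefix 2445 alone (37.2%, against 6.29%). Of 69 genes followed through the alternatives 4 changed sign. Mybpc1 was at 0.010 with prefix 2445 alone, 0.10 with the marker covariate and 0.046 without 740-2 and 740-5, Myf6 at 0.11 with prefix 2445 alone and Gsn at -0.70 with the marker covariate. Phlda3 was at 0.0091 with a mean of at least 10 CPM, 0.020 with prefix 2445 alone, 3.93e-05 with summed counts and between -0.11 and 0.050 with 1 fibre left out. The causes were not tested. The fits without 740-2 and 740-5, the alternatives of the prefix difference, and the WT fits within fibres with Y-linked or Xist counts were chosen after seeing the data. The classes were compared within prefixes, but no fibre of 1 class was paired with a fibre of the other. The labels give no replicate numbers that tie fibres to an animal.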
